A study of Mus musculus with 7 samples.

Results

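Expression of 10 genes of the NF-kB system was followed in bile duct epithelial cells of DDC-fed mice, with and without diphtheria toxin aimed at regulatory T cells. The genes were taken by name as rows of the count table, and all 10 of 10 were found among its 24552 gene symbols. By role they are the subunit genes Nfkb1, Nfkb2 and Relb, the inhibitor genes Nfkbia, Nfkbiz, Tnfaip3 and Tnip1, and the target genes Birc3, Icam1 and Tnfaip2. All 10 passed the filter on low counts.

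The cells were EpCAM+ cholangiocytes freshly isolated from livers of Foxp3GFPDTR mice, in which the receptor for diphtheria toxin sits in cells that express Foxp3. Every animal, in both groups, carried this allele and ate a DDC diet for 10 days. In the DT group (3 libraries) diphtheria toxin was injected intraperitoneally at 1 µg/kg every 48 h, and in the PBS group (4 libraries) PBS was injected instead. The labels give neither age nor sex. They also do not state whether a library is 1 animal or a pool, so p-values reflect the spread between libraries, part of which may be technical. The loss of Foxp3-positive cells was not measured here.

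NF-kB is a family of transcription factor dimers that are held inactive in the cytoplasm by IkB proteins. In the canonical arm, receptors for TNF, interleukin-1 or microbial products activate a kinase complex that marks IkB for degradation, and the freed dimers switch on genes that include their own inhibitors. In the non-canonical arm, a kinase that accumulates after lymphotoxin or CD40 signals drives processing of the Nfkb2 product, which pairs with RelB. In bile duct epithelium this system is known for inducing chemokines and adhesion molecules during cholangitis.

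The stretches of DNA at the start of these genes are shown because NF-kB is known to act on its own inhibitors through kB sites. RefSeq windows of 300 bases on GRCm38.p6, from 250 bases before to 50 bases after a gene's start, were matched by symbol for 7 of the 10 genes, the others being Nfkb1, Nfkbiz and Relb. Both strands were searched for the kB consensus GGGRNWYYCC (R is A or G, N any base, W is A or T, Y is C or T). A kB consensus match was present in at least 1 window of 4 of these 7 genes (Nfkbia, Tnfaip3, Tnip1 and Nfkb2), against 5.14% of all 27025 genes with a window, and in 4.51% of all 32851 windows. The windows of the target genes Birc3, Icam1 and Tnfaip2 held 0 matches to this exact pattern, and near matches were not counted. The Icam1 window holds a near match, tggaaattcc, which departs from the consensus only at its first base. A match is a description of letters and not a measured binding site.

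The windows of the 4 genes with a match follow, 5′ to 3′ on the gene's strand, with matches to the kB consensus in capitals. They lie at chr12:55492598-55492897, minus strand for Nfkbia, at chr10:19015361-19015660, minus strand for the first of 2 Tnfaip3 windows, at chr11:54962891-54963190, minus strand for Tnip1, and at chr19:46304487-46304786, plus strand for the first of 3 Nfkb2 windows.
Nfkbia: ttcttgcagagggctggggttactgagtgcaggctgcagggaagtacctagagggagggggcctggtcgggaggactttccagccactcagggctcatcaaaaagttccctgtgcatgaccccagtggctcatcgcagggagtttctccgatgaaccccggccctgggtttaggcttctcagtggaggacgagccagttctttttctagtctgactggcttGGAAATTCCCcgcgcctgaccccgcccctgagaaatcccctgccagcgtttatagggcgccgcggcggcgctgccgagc
Tnfaip3: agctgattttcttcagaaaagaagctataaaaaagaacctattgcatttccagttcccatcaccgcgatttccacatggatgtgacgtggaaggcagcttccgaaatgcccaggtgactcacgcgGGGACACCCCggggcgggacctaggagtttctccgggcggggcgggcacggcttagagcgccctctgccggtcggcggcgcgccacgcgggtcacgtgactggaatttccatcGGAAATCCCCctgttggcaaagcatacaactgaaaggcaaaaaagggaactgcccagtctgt
Tnip1: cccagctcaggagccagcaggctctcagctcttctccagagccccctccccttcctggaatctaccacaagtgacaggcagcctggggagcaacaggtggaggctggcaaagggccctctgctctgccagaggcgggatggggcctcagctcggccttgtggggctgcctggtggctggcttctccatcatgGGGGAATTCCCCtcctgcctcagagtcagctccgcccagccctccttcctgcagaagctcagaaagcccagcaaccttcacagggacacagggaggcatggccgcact
Nfkb2: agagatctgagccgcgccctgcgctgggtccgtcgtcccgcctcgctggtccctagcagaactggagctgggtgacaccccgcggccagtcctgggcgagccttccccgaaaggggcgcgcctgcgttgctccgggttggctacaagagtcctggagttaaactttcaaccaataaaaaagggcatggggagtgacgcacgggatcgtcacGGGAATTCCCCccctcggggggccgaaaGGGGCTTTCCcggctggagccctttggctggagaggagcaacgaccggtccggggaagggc

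The Nfkbia window held 1 match, on the opposite strand, from 29 to 20 bases before the start. The Tnfaip3 window held 2 matches that do not overlap, the nearer one from 12 to 3 bases before the start. In Tnip1, 4 overlapping matches on the 2 strands formed a single block from 58 to 47 bases before the start. In Nfkb2, 3 overlapping matches formed a block from 39 to 29 bases before the start, and 1 further match ended 2 bases before it.

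Total counts per library ran from 5683824 to 6285624 in DT and from 4805018 to 5499832 in PBS. The sorted cells carried duct markers, with 13 to 15 of 15 listed cholangiocyte genes above 0 in each library. Of 21 lymphocyte markers in the table, 16 had 0 counts in all 7 libraries, Foxp3 and Cd3e among them. The other 5 summed to 137, 186 and 7.05 CPM (counts scaled to a common library size) in DT 1 to 3 and to at most 55.5 CPM in PBS. Gzma had 821 and 286 counts in DT 1 and DT 2 against 0 in each PBS library. Gzmb went the other way, with 195 counts in PBS 4 and 0 in each DT library. Ptprc had 703 counts in DT 2, 1 in DT 3 and 86 in PBS 4. Il7r had 39 counts in DT 3 only, and Cd8a at most 1 count in any library. Macrophage and monocyte markers were read for 17 of 20 genes, with Adgre1 at 0 throughout. Their sum overlapped between the groups (1608 to 2086 CPM in DT and 872 to 2376 CPM in PBS) but was mostly Cd14. Without Cd14 it was 322, 556 and 819 CPM in DT 1 to 3 and 63.1, 132, 56.4 and 1503 CPM in PBS 1 to 4, so that DT lay above PBS 1 to 3 and below PBS 4. Neutrophil markers, with Ly6g at 0 throughout, summed to 36.7, 191 and 96.3 CPM in DT 1 to 3 and 0, 0, 0 and 386 CPM in PBS 1 to 4. Here too DT lay above PBS 1 to 3 and below PBS 4. Hepatocyte markers summed to 5196 to 6553 CPM in DT and 2795 to 4672 CPM in PBS, ranges that do not overlap. The sum was mostly Alb, Gc and Ambp, with means of 1719, 1824 and 1035 CPM in DT and 1022, 1335 and 597 CPM in PBS. Of these, Gc overlapped between the groups. Tat, Tdo2, Cps1 and Cyp3a11 had 0 counts in all 7 libraries, and Cyp2e1 had at most 1 count in any library. Sex ran with the groups as far as reads show it. Y-linked genes had 1681, 1045 and 880 counts in DT 1 to 3 and 2048, 0, 0 and 0 counts in PBS 1 to 4, and Xist, which is read from the inactive X chromosome of females, had 453, 0 and 0 counts in DT 1 to 3 and 630, 12089, 17627 and 10420 counts in PBS 1 to 4. DT 1 and PBS 1 held both, and in the remaining libraries sex and treatment cannot be told apart. The part of these differences in the values below was not tested, except that the presence of Y-linked reads was also used as a covariate. All DT libraries and PBS 1 held such reads, and PBS 2 to 4 did not. The fit with this covariate thus compares DT with PBS 1 alone, and its values are not adjusted for sex over all 7 libraries.

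None of the 10 genes passed the test between DT and PBS in either direction. By the edgeR quasi-likelihood test with Benjamini-Hochberg adjustment over 7688 tested genes, 0 of the 10 were higher and 0 were lower. The background was 0 genes higher (0%) and 3 lower (0.039%). DESeq2 and limma-voom with sample weights also called 0 of the 10, where they called 29 higher (0.377%) and 82 lower (1.07%), and 6 higher (0.078%) and 6 lower (0.078%), over all genes. At an unadjusted p under 0.05, 0 of the 10 were higher and 2 were lower, Nfkbia and Tnfaip3. Among the 3274 genes at an average log2 CPM of 6 or more, where all 10 genes lie, 2.17% were higher and 1.89% lower at that level, and at an average of 8 or more 6.55% and 6.28%. The 10 genes had positive fold changes in 6 cases and negative in 4, with a median log2 fold change of 0.14, against -0.02 over all tested genes. Each edgeR adjusted p was 1.00.

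Among the inhibitor genes, 3 of 4 had lower means in DT. Nfkbia encodes IkB-alpha, the inhibitor that is degraded and resynthesised in canonical signalling. It was read at 1742, 1804 and 2634 CPM in DT 1 to 3, against 2983, 4063, 3343 and 2359.7 CPM in PBS 1 to 4. DT 1 and DT 2 lay below every PBS library, and the groups overlapped only because DT 3 lay above PBS 4. The means were 2060.25 ± 498 CPM in DT (SD, n = 3) and 3187 ± 711 CPM in PBS (SD, n = 4), which is -0.63 on the log2 scale (SE 0.22, edgeR unadjusted p = 0.00724, adjusted p = 1.00). The adjusted p was 0.0653 by DESeq2, the smallest of any of the 16 alternatives for this gene, and 0.215 by limma-voom. Without PBS 4, the library with the most macrophage reads, the value was -0.75. Over single libraries left out it ran from -0.85 without DT 3 to -0.49 without PBS 2. With the Y-linked covariate it was -0.53. In these bulk libraries fewer expressing cells and less RNA per cell cannot be told apart.

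Tnfaip3 encodes a ubiquitin-editing enzyme that shuts off signalling from TNF receptors. Its levels were 479, 167 and 247 CPM in DT 1 to 3 and 766, 333, 479 and 659 CPM in PBS 1 to 4. DT 2 and DT 3 lay below every PBS library, while DT 1 lay close to PBS 3. Means were 298 ± 162 CPM in DT (SD, n = 3) and 559 ± 192 CPM in PBS (SD, n = 4), or -0.91 as log2 ratio (SE 0.42, edgeR unadjusted p = 0.0351, adjusted p = 1.00). This value was -0.63 without DT 2 and -1.46 without DT 1.

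Nfkbiz encodes IkB-zeta, an atypical nuclear family member that can also act as a co-activator of secondary response genes. It stood at 249, 584 and 432 CPM in DT 1 to 3 and at 540.4, 1108, 637 and 481 CPM in PBS 1 to 4. DT 1 and DT 3 were below all PBS libraries, and PBS 2 was far above the rest. The fitted log2 difference, DT over PBS, was -0.71 (SE 0.37; adjusted p = 1.00 by edgeR). It was -0.39 without PBS 2, -0.47 without DT 1 and -0.36 with the Y-linked covariate.

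Tnip1, whose product binds the Tnfaip3 enzyme and restrains NF-kB, pointed the other way. It was at 251, 386 and 255 CPM in DT 1 to 3 and at 279, 235, 129 and 96.7 CPM in PBS 1 to 4. The DT libraries lay above PBS 2 to 4, and PBS 1 lay within the DT range. Its log2 fold change was 0.68 (SE 0.55; adjusted p = 1.00 by edgeR), 0.45 without DT 2, 1.06 without both DT 1 and PBS 1, and 0.088 with the Y-linked covariate. Unlike this gene, the inhibitor genes Nfkbia, Nfkbiz and Tnfaip3 had negative fold changes under each of the 16 alternatives run, and Tnip1 a positive one under each of the 15 that could be run for it.

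**Figure D1:**
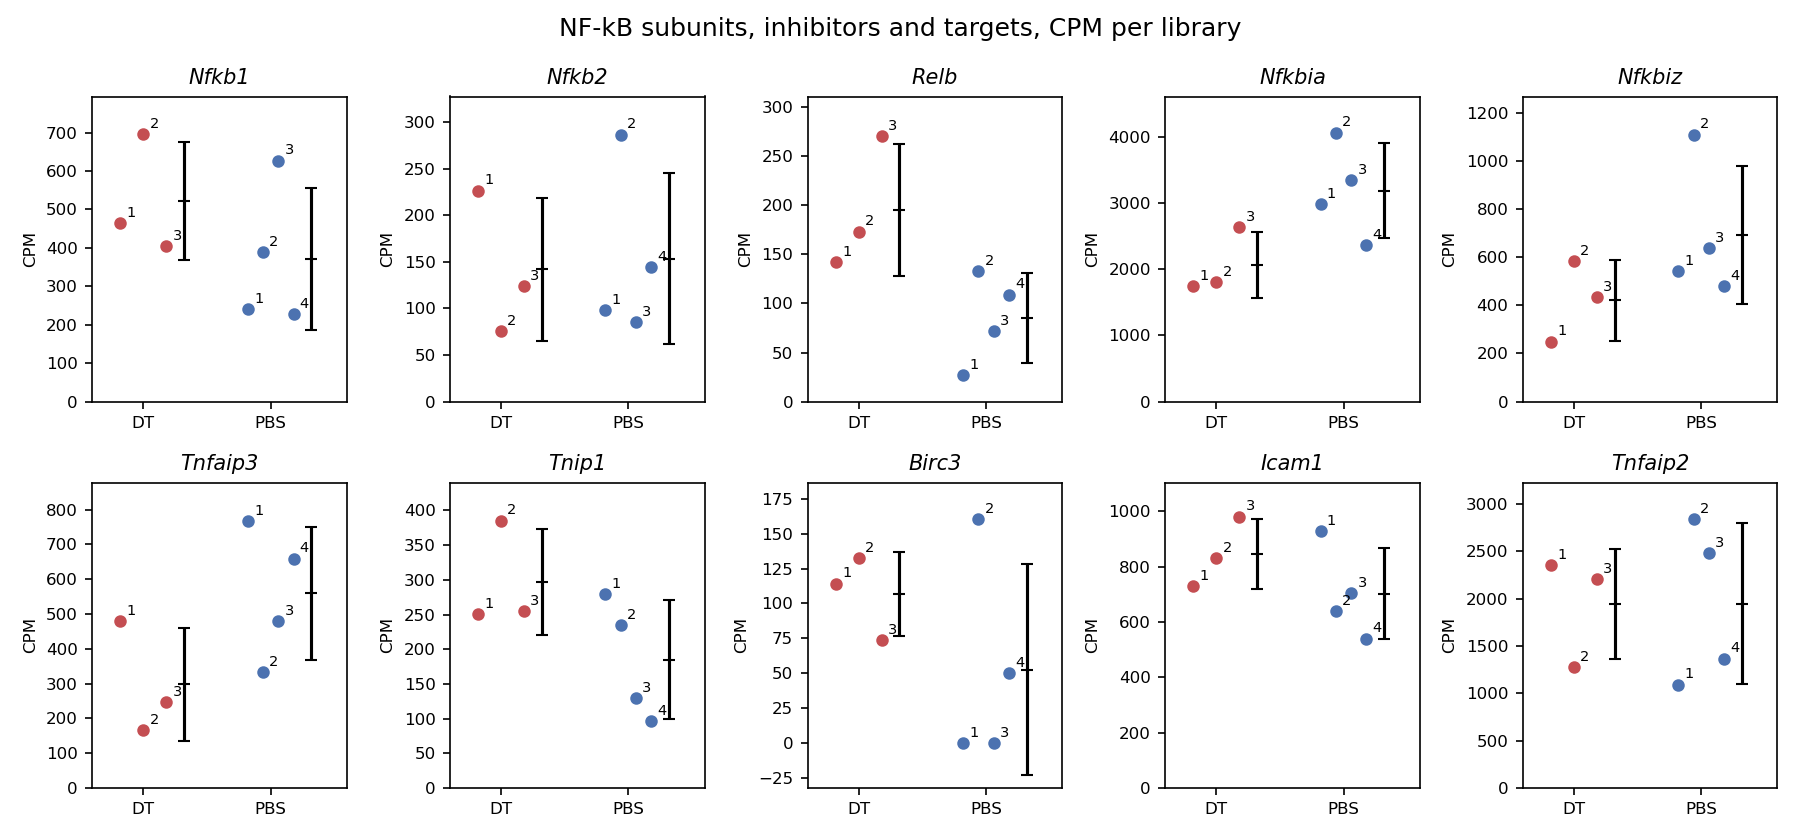
CPM of each of the 10 genes in every library (y axis, own scale per gene), with DT in red on the left and PBS in blue on the right, the library number beside each point, and the mean ± SD as the black bar. Relb is the 1 gene whose DT points all lie above its PBS points, and for Nfkbia the groups touch through DT 3 and PBS 4.

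Among the subunit genes, Relb was the 1 gene of the 10 whose groups did not overlap. Relb encodes the partner of the processed Nfkb2 product in the non-canonical dimer. It was at 142, 173 and 270.0 CPM in DT 1 to 3 and at 27.0, 133, 72.1 and 109 CPM in PBS 1 to 4. All DT libraries lay above all PBS libraries, with DT 1 and PBS 2 the closest pair. The means were 195 ± 66.9 CPM in DT (SD, n = 3) and 85.2 ± 46.1 CPM in PBS (SD, n = 4), giving 1.19 on the log2 scale (SE 0.90; adjusted p = 1.00 by edgeR). Over single libraries left out this value ran from 0.88 without DT 3 to 1.49 without PBS 2. With the Y-linked covariate, which sets DT against PBS 1 alone, the lowest library for Relb, it was 2.85. Of genes at an average log2 CPM of 6 or more, 4.34% had every DT library above every PBS library and 3.54% every DT library below, and 1 such gene among 10 was not read as a result.

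Nfkb1 encodes the precursor of the canonical DNA-binding subunit. It was at 464, 696 and 405 CPM in DT 1 to 3 and at 240.5, 389, 627 and 228 CPM in PBS 1 to 4. PBS 3 alone reached the DT range. As log2 ratio of DT over PBS this was 0.49 (SE 0.41; adjusted p = 1.00 by edgeR). The log2 ratio was 0.22 without DT 2, 0.32 without PBS 1, 0.31 without PBS 4, 0.86 without PBS 3 and 1.12 with the Y-linked covariate.

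Nfkb2, which supplies the non-canonical DNA-binding subunit, showed no common direction. Its levels were 227, 75.9 and 124 CPM in DT 1 to 3 and 98.0, 286, 85.7 and 144 CPM in PBS 1 to 4. DT 2 was the lowest of the 7 libraries and PBS 2 the highest. Its log2 fold change was -0.11 (SE 0.81; adjusted p = 1.00 by edgeR), and the sign turned with the library left out, from -0.64 without DT 1 to 0.38 without PBS 2. In the GENCODE annotation of GRCm38, Nfkb2 overlaps Psd on the opposite strand by 299 bases, and since the use of strand in counting is not given in the sources used here, reads there cannot be told apart.

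None of the target genes passed the test, and in each the groups overlapped. Icam1 encodes the adhesion molecule through which epithelium and endothelium bind leukocytes. It was at 729.6, 831 and 981 CPM in DT 1 to 3 and at 927, 638, 705 and 539 CPM in PBS 1 to 4. Only PBS 1 lay inside the DT range, for a log2 fold change of 0.27 (SE 0.31; adjusted p = 1.00 by edgeR). It was 0.15 without DT 3, 0.16 without PBS 4, 0.42 without PBS 1 and 0.53 without both DT 1 and PBS 1, and turned to -0.13 with the Y-linked covariate.

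Tnfaip2, a TNF-induced gene linked to membrane protrusions, had nearly equal means. It was at 2350.3, 1277 and 2208 CPM in DT 1 to 3 and at 1091, 2843, 2481 and 1366 CPM in PBS 1 to 4. Each group held both high and low libraries. The means were 1945 ± 583 CPM in DT (SD, n = 3) and 1945 ± 848 CPM in PBS (SD, n = 4), 8.6e-05 as log2 ratio (SE 0.30; adjusted p = 1.00 by edgeR). Its coefficient of variation was 30.0% in DT and 43.6% in PBS, against medians of 17.9% and 20.2% for the 47 other genes within 0.5 log2 CPM of its level.

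Birc3 encodes an inhibitor of apoptosis that is also a ubiquitin ligase of the TNF receptor complex. It had 687, 706 and 419 counts in DT 1 to 3 and 0, 813, 1 and 255 counts in PBS 1 to 4. It was read in every DT library, while PBS 1 and PBS 3 were at or next to 0 and PBS 2 held the highest count of all. Its log2 fold change was 1.02 (SE 1.85; adjusted p = 1.00 by edgeR). This value was not stable. It was 0.59 without PBS 1 or PBS 3, 2.67 without PBS 2, 3.60 by limma-voom and 7.51 under the replicate block. With the Y-linked covariate, which sets DT against PBS 1 alone, at 0 counts, it was 12.15. Values of 0 were common at this level of counts, and their cause was not tested. For genes averaging 200 to 500 counts in the remaining libraries of a group, 25.6% of values were 0. At 2000 counts or more, the range of Nfkbia and Tnfaip2, the share was 0.0614%.

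**Figure D2:**
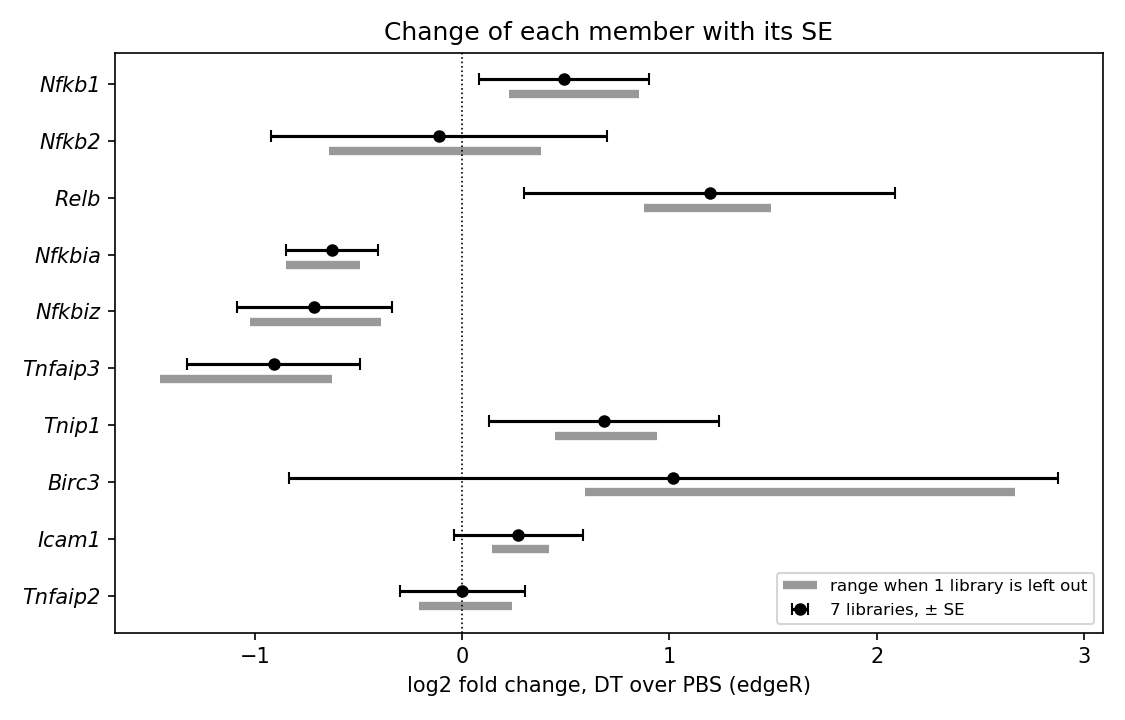
Log2 fold change of each gene, DT over PBS, by edgeR (x axis), with points and whiskers for the 7 libraries ± SE and grey bars for the range when 1 library is left out. Nfkbia, Nfkbiz and Tnfaip3 stay below 0 in these fits and Nfkb1, Relb, Tnip1, Birc3 and Icam1 above 0, while Nfkb2 and Tnfaip2 cross it, and none passed the test.

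Together the 10 genes held 0.715%, 0.566% and 0.688% of all counts in DT 1 to 3 and 0.725%, 0.999%, 0.865% and 0.556% in PBS 1 to 4. These totals overlapped between the groups. Within them Nfkbia made up 25.8%, 29.5% and 34.5% in DT 1 to 3 and 42.9%, 39.9%, 39.1% and 39.1% in PBS 1 to 4, a comparison chosen after the values were seen. Each DT library had a smaller Nfkbia fraction than each PBS library, including PBS 4, whose Nfkbia level in CPM lay below that of DT 3. This fraction depends on the other 9 genes as well, above all on Tnfaip2, and carries no test.

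**Figure D3:**
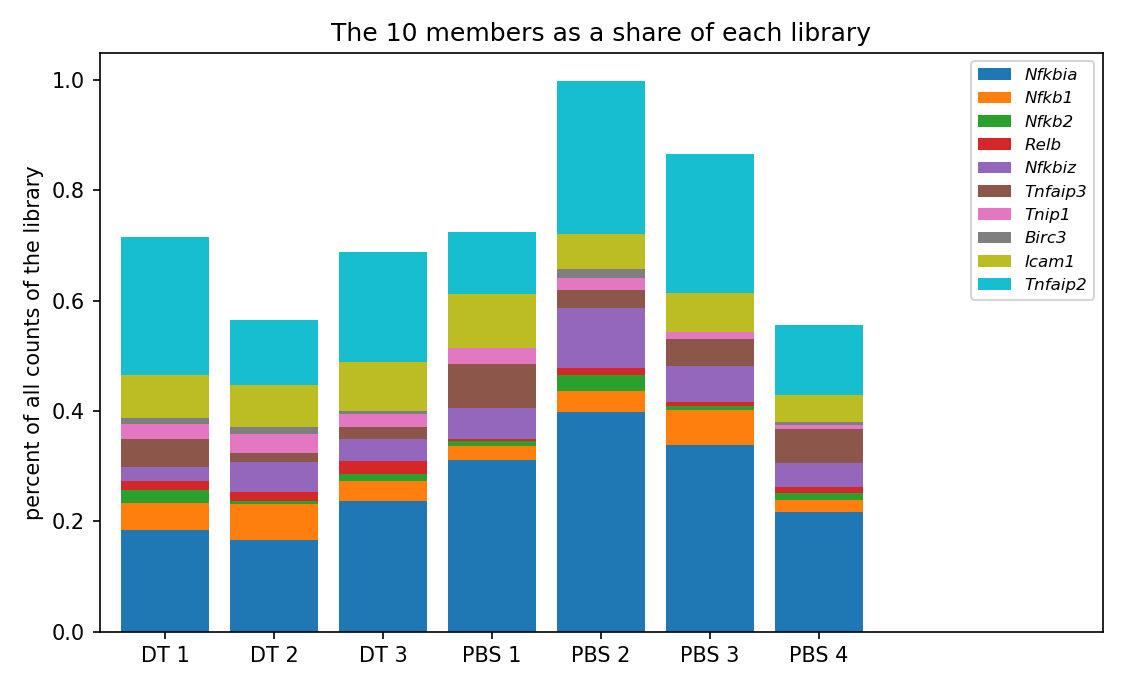
Share of each library's counts (y axis, percent) taken by each of the 10 genes, stacked, with the 3 DT libraries left of the 4 PBS libraries. The bars run from 0.566% to 0.715% in DT and from 0.556% to 0.999% in PBS. The lowest, blue segment, Nfkbia, fills a smaller part of each DT bar, a comparison chosen after the values were seen and not tested.

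For the 3 most highly read of the 10 genes, the patterns over the 7 libraries were compared with those of 727 other genes at an average log2 CPM of 8 or more. Likeness was the root mean square difference between log2(CPM + 1) profiles after each gene was centred on its own mean. For Nfkbia the nearest genes were Luc7l3 (0.111), Atp2a2 (0.190), Iqgap1 (0.223) and Agrn (0.227), where the spread of Nfkbia itself was 0.417 on that scale. For Tnfaip2 they were Gnb2 (0.257), Pttg1ip (0.260), Ncl (0.268) and the chemokine gene Cxcl1 (0.274). For Icam1 they were Ptma (0.189), Ddx5 (0.192), Rps21 (0.198) and Stt3b (0.208), where Icam1 itself varied by only 0.281.

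Of 109 other genes of the pathway listed by role, 98 had a count above 0 and 76 were tested, and none passed as higher or lower by edgeR (background 0% and 0.039%). They had positive fold changes in 36 cases and negative in 40, with a median log2 fold change of -0.06 against -0.02 over all tested genes. At an unadjusted p under 0.05, 1 was higher and 1 lower, where all tested genes gave 1.39% and 2.11%. DESeq2 called 1 of them higher, Nkiras2, and limma-voom called 0.

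The 2 other subunit genes were both tested. Rela, the main activating subunit of the canonical dimer, was at 306, 168 and 246 CPM in DT 1 to 3 and at 144, 122, 385 and 590.0 CPM in PBS 1 to 4. The PBS libraries enclosed the DT libraries on both sides (log2 fold change -0.37, SE 0.53; adjusted p = 1.00 by edgeR). Rel, the subunit best known from lymphocytes, had 0, 391 and 380 counts in DT 1 to 3 and 0, 195, 0 and 0 counts in PBS 1 to 4.

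Among other IkB genes and nuclear or cytoplasmic regulators, 5 of 8 were tested, 4 with positive and 1 with negative fold changes. Nkiras2, a Ras-like protein that binds IkB proteins, had 426, 222 and 146 counts in DT 1 to 3 and 0 counts in each of PBS 1 to 4. Against a floor of 3 counts per library this was at least 77.3-fold higher in DT by counting error alone, with an edgeR unadjusted p of 0.0124 and an edgeR adjusted p of 1.00. Its DT counts span the range of 200 to 500 counts, where 25.6% of single values were 0, and that of 100 to 200, where 43.5% were. The floor does not cover zeros of this kind, so the 77.3-fold is not a lower bound on the true difference. Bcl3, an atypical IkB that works in the nucleus, was at 0.44 on the log2 scale (SE 1.23), and Nfkbib, which encodes IkB-beta, at -1.74 (SE 1.63). On the same scale Commd1 and Nkrf, both repressors of NF-kB, were at 0.48 (SE 3.00) and 0.61 (SE 3.11).

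Of 17 genes for kinases and for partners in their complexes, such as the Tab genes and Ikbkg, 14 were tested, 8 with positive and 6 with negative fold changes. Ikbkb and Chuk encode the catalytic subunits of the IkB kinase complex. Ikbkb had a log2 fold change of 0.81 (SE 0.99) and Chuk of -0.94 (SE 1.67), with Chuk at 0 counts in DT 1 and 2 counts in PBS 4. Tab2, an adaptor of the upstream kinase TAK1, was at a log2 fold change of -0.92 (SE 0.57), and Irak2, a kinase of interleukin-1 receptor signalling, at -0.88 (SE 1.12). Of 28 adaptor and ubiquitin genes 19 were tested, 10 positive and 9 negative. Bcl10, an adaptor that recruits the kinase complex, had a log2 fold change of 1.09 (SE 0.62), and Tax1bp1, a partner of the Tnfaip3 enzyme, had 0.75 (SE 0.58). Rnf11 had 0.32 (SE 1.09), and Cul1, a scaffold of the ligase that marks IkB, had -0.44 (SE 0.82).

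Of 15 receptor genes 9 were tested, 2 with positive and 7 with negative fold changes. Tnfrsf1a, the broadly expressed TNF receptor, was at 268, 253 and 337 CPM in DT 1 to 3 and at 188, 300.3, 175 and 116 CPM in PBS 1 to 4, and only PBS 2 reached the DT range (log2 fold change 0.55, SE 0.54). Tnfrsf1b, the second TNF receptor, had a log2 fold change of -2.22 (SE 1.46), the TWEAK receptor gene Tnfrsf12a -0.24 (SE 0.85) and the lymphotoxin receptor gene Ltbr -0.26 (SE 1.36). Ligands were sparse, and 3 of 11 were tested. Il1b, which encodes interleukin-1 beta, had 507, 877 and 935 counts in DT 1 to 3 and 36, 16, 11 and 362 counts in PBS 1 to 4. All DT libraries lay above all PBS libraries, with a log2 ratio of 2.72 (SE 1.90; adjusted p = 1.00 by edgeR) and of 5.05 without PBS 4. The macrophage markers other than Cd14 and the neutrophil markers were likewise higher in DT than in PBS 1 to 3, and highest in PBS 4, and their part in the Il1b counts was not tested. Tnf had 602, 0 and 4 counts in DT 1 to 3 and 48, 1106, 258 and 4 counts in PBS 1 to 4, and Ltb, a lymphotoxin subunit gene, had at most 53 counts in DT and 288 in PBS.

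Of 28 further target genes 24 were tested, 10 with positive and 14 with negative fold changes. Vcam1, an adhesion molecule for leukocytes, was at 3736, 2994 and 3131 CPM in DT 1 to 3 and at 4474, 6837, 4920.3 and 2952 CPM in PBS 1 to 4. All 3 DT libraries lay below PBS 1 to 3 and above PBS 4. The log2 ratio was -0.55 (SE 0.21, edgeR unadjusted p = 0.0136, adjusted p = 1.00), -0.72 without PBS 4 and -0.32 without PBS 2. Changes were near 0 for the neutrophil chemokine genes Cxcl5 (-0.02, SE 0.21) and Cxcl2 (0.10, SE 0.23) and for the early response gene Ier3 (-0.03, SE 0.25), all on the log2 scale. Of the 76 tested pathway genes, 4 had all DT libraries above all PBS libraries and 1 had them all below, where all tested genes gave 3.73% and 2.58%. Those above, beside Nkiras2 and Il1b, were Tnip2 and Ninj1, and the 1 below was Traf3, these 3 named after their values were seen.

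**Figure D4:**
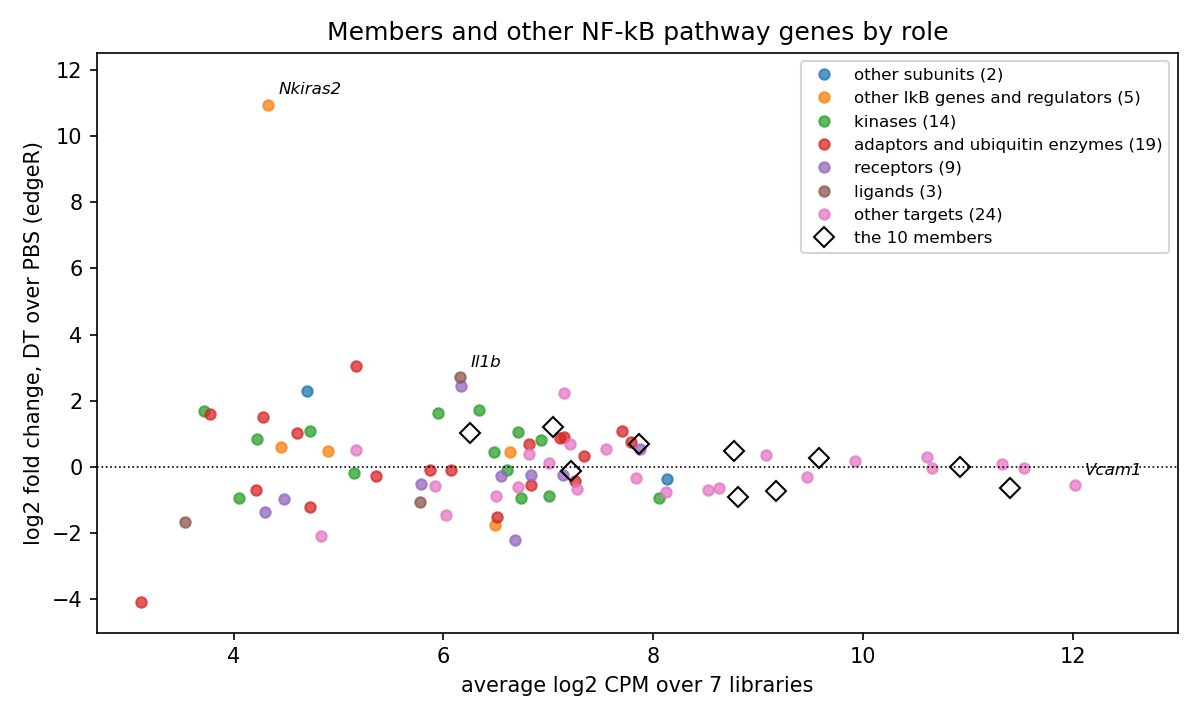
Log2 fold change, DT over PBS, by edgeR (y axis) against average log2 CPM (x axis) for the 76 tested pathway genes, coloured by role with the number per role in the legend, and for the 10 main genes as open diamonds. Fold changes scatter widely at low levels and narrow at high ones, and the fitted value of Nkiras2, which has 0 counts in all PBS libraries, depends on the prior count.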

How the data were processed

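The authors deposited raw read counts per gene symbol for 7 libraries, whole numbers that are not normalized. Per the labels' protocols, libraries were made from 100 ng total RNA with a kit that reads the 3′ ends of transcripts, so counts were not divided by gene length. Per the submitters' processing notes the build was mm9. The aligner, counter, annotation and use of molecular identifiers were not given in the sources used here. Titles gave each library its group and number. Intervals and floors cover counting error only.

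DT was compared with PBS by edgeR 4.0.16 in R 4.3.3 with TMM factors, filterByExpr (7688 of 24552 genes, holding 97.5% of counts), and a robust quasi-likelihood F test, two-sided, with an adjusted p threshold of 0.05. CPM used TMM-scaled library sizes. Each SE is the fold change divided by the square root of F. Alternatives were upper quartile or RLE factors, testing without a filter, and keeping only genes with average log2 CPM 8 or higher. Further ones were DESeq2 1.42.0, limma 3.58.1 voom with sample weights, the replicate number as a block, and leaving out libraries. The presence of Y-linked reads was also used as a covariate. Scripts were tested on simulated data. The members and lists were chosen with earlier results of these data known. Pathway genes were named by rule: up to 4 per role with the highest average log2 CPM, and any with an unadjusted p under 0.05. Others are marked as chosen after their values were seen. Figures were drawn with matplotlib 3.10.9.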

Additional observations from a re-analysis of the deposited data

Results flagged for a closer look

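Among 35 genes tested for a PBS library far from the other 3, none of the 10 main genes stood apart and 3 other pathway genes did. Chance flags about 1 in 20 where values are normally distributed. That rate was not tested for genes with several counts of 0, as Rel and Ltb have in PBS. Il1b stood at 71.5 CPM in PBS 4, and the gap to the nearest PBS library covered 0.932 of that group's range. For Rel the gap covered all of it (1), as PBS 2 had 195 counts and the rest of PBS had 0. For Ltb, with 288 counts in PBS 3, the gap covered 0.930. No replicated group of 4 exists for DT, so its 3 libraries were not tested in this way.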

How the results depend on the processing

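No gene of the 10 passed the threshold under any of the 16 alternatives run. Over all genes, 0 were called higher and 3 lower. These became 29 and 82 by DESeq2, 1 and 7 without a filter, 6 and 6 by limma-voom, 0 and 5 under the filter at 8, and also 6 and 6 under the replicate block, and 23 were higher with Y-linked reads as a covariate. With single libraries left out, 0 to 1 were higher and 1 to 4 lower. Pathway genes called higher numbered 1 by DESeq2 (Nkiras2, adjusted p = 0.0215) and 2 with the Y-linked covariate (Ninj1 and Sod2), against 0. These covariate calls rest on PBS 1, where Ninj1 and Sod2 had 0 counts, with log2 fold changes of 13.42 and 13.25. In PBS 2 to 4, Ninj1 had 111, 400 and 577 counts and Sod2 had 269, 1773 and 1055 counts. Without the covariate their log2 fold changes were 2.24 and 0.55. The sign turned for Tnfaip2, whose log2 fold change was -0.0073 with RLE factors and by DESeq2, -0.038 with upper quartile factors, -0.033 under the filter at 8, -0.016 without a filter, -0.049 by limma-voom, -0.077 under the replicate block and -0.35 without PBS 1 and DT 1, and spanned -0.21 to 0.24 over single libraries left out. It turned for Nfkb2 (0.54) and Icam1 (-0.13) with the Y-linked covariate, and Nfkb2 spanned -0.64 to 0.38 over single libraries left out. The covariate values set the DT means of Nfkb2 and Icam1, 142 and 847 CPM, against 98.0 and 927 CPM in PBS 1 alone. The cause of the other turns was not tested. The Y-linked covariate moved the median log2 fold change of all genes to 0.67 and limma-voom to 0.21, against -0.02. Same-numbered libraries did not deviate together (correlations of -0.049, -0.012 and 0.026 over 733 genes). Of 3 DT libraries, 1 was closest to the PBS library of its number. The block gave Nfkbia -0.76 (edgeR adjusted p = 0.237). No DT library shares the number of PBS 4, so PBS 4 adds nothing to the DT effect under the block. Without PBS 4 and without a block, Nfkbia was at -0.75. Nfkb2, Relb, Tnip1 and Birc3 were not tested with the filter at 8. Frequent counts of 0 limit genes below about 1000 counts.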
